A study of Mus musculus with 25 samples.

Results

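The regions described here are crosslinked nucleotides that the authors called as peaks for a GFP-tagged SRSF7 lacking 27 residues (D27aa), and that lie apart from every peak of the unchanged protein (WT) and of a second variant (mutZn). A nucleotide of the D27aa peak list was taken when no nucleotide of the WT or mutZn peak list lay within 30 nt on the same strand. The nucleotides were thus selected on the authors' peak calls, which rest on summed cDNA counts. This gave 6043 of the 34759 D27aa peak nucleotides (17.39%), called D27aa-only nucleotides below. The WT list held 2045481 peak nucleotides and the mutZn list 2246120. Because the rule used the D27aa, WT and mutZn peaks, which came from the same anti-GFP libraries, the levels of those libraries at these nucleotides describe the choice and were not tested.

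SRSF7 is a serine/arginine-rich protein that acts in pre-mRNA splicing and in later steps of mRNA processing. It binds RNA through an RNA recognition motif, helped by a zinc knuckle, and its serine/arginine-rich tail contacts other proteins. In iCLIP, living cells are irradiated so that bound protein becomes attached to its RNA, the complex is pulled down with an antibody, and the cDNA made from the attached RNA tends to end next to the crosslinked nucleotide. Each such cDNA is 1 event in what follows. RNA-binding proteins often leave events over several neighbouring nucleotides, so a peak can be read both by its height and by its surroundings.

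All 25 libraries came from P19 cells, a mouse embryonal carcinoma line, and marker genes of these cells were not analysed here. With an anti-EGFP antibody there were 3 libraries of cells overexpressing SRSF7-GFP (WT 2, 3 and 4), 2 of cells with SRSF7mutZn-GFP, the variant with a changed zinc knuckle (mutZn 3 and 4), and 2 of cells with SRSF7D27aa-GFP (D27aa 1 and 2). These cells were irradiated at 254 nm, and each protein also had 1 library without UV (WT_noUV, mutZn_noUV and D27aa_noUV). With an anti-SRSF7 antibody there were products titled GFP_OE (2 libraries), endo_OE (2) and RRM_OE (2) from cells overexpressing SRSF7-GFP, endo_WT (1) from WT cells, 1 library without UV and 1 without antibody. In piCLIP, a form of the assay on ribosome fractions of SRSF7-GFP cells, the monosomal and polysomal fractions each had 2 immunoprecipitates (mono_IP, poly_IP) and 1 library titled IgG, for which the labels give anti-EGFP as the antibody. The labels give 254 nm also for all piCLIP libraries, IgG-titled ones included, for the anti-SRSF7 products and for the library without antibody. The promoter that drives each GFP-tagged protein and the number of clones were not stated in the labels.

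The D27aa libraries held 376870 and 388768 events. The WT libraries held 221746 to 3952779 events, mutZn 6436730 and 11782376, the anti-SRSF7 libraries with UV 17763 to 471705, the piCLIP immunoprecipitates 18357 to 52553, and the control libraries 1153 to 89070. D27aa 1 was sequenced in the same run as WT 2, and D27aa 2 in the same run as WT 3, WT 4, mutZn 4 and D27aa_noUV. Both D27aa libraries carry the barcode that WT_noUV and the library without antibody also carry, and D27aa_noUV carries the barcode of WT 2. The part of run and barcode in the results was not tested. Levels are given in CPM, events per 1e+06 events of the library, and RNA abundance was not among the values used here, so more binding and more RNA cannot be told apart.

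D27aa-only nucleotides were weak peaks. They held 8763 of the 85119 events at D27aa peaks (10.29%), a mean of 1.45 events per nucleotide, while the other 28716 D27aa peak nucleotides had a mean of 2.659. A count of 1 event made up 73.24% of the D27aa-only nucleotides and 64.1% of the others. At the upper end, 95 of them (1.572%) had 5 or more events and 26 had 10 or more, against 2763 (9.622%) and 1106 of the others. The plus strand held 3043 and the minus strand 3000.

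Of the other D27aa peaks, 21840 lay at the very nucleotide of a WT or mutZn peak and 6876 lay 1 to 30 nt from one. At the edge of the rule, the 164 nucleotides 26 to 30 nt from a WT or mutZn peak had a mean of 1.402 events, and the 118 nucleotides at 31 to 35 nt had a mean of 1.669. Most D27aa-only nucleotides were far from the edge. There were 1023 at 31 to 100 nt, 768 at 101 to 300 nt, 936 at 301 to 1000 nt, and 3316 (54.87%) more than 1000 nt from any WT or mutZn peak. The mean number of events was 1.465, 1.375, 1.334 and 1.495 in these classes, with no order along the distance.

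D27aa-only nucleotides lay in short, mostly separate stretches. Joined wherever 30 nt or less separated them, they formed 2777 stretches, of which 1038 had 1 nucleotide, 879 had 2, 481 had 3, 142 had 5 or more and 8 had 10 or more. Stretches of 2 or more held 82.82% of the nucleotides, their median span was 5 nt, and the longest reached 29 nt. Every step inside a stretch was 15 nt or shorter, the neighbourhood that the authors' peak call used, and 55.63% of the steps led to the adjacent nucleotide. The other D27aa peaks, joined in the same way, formed 6232 stretches with 4.608 nucleotides each, against 2.176 for the D27aa-only ones. Steps to the adjacent nucleotide made up 44.38% there.

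Beyond the stretch there was little further grouping. When stretches up to 5000 nt apart on a strand were joined, 2713 loci resulted, and 2657 of them were 1 stretch. The locus with the most stretches lay on chromosome 17 (build mm9, plus strand, 23953593 to 23956483), with 4 stretches, 31 nucleotides and 43 events, 24 in D27aa 1 and 19 in D27aa 2. The stretch with the most nucleotides there (23953593 to 23953612) had 12 nucleotides and 14 events, with 22.15 ± 5.055 CPM within 30 nt in D27aa (n = 2), 7.743 ± 1.329 in the WT libraries (n = 3) and 8.353 ± 0.0508 in mutZn (n = 2). A locus on chromosome 19 (minus strand, 5798601 to 5801305) followed in number of nucleotides, with 3 stretches, 21 nucleotides and 77 events, 40 in D27aa 1 and 37 in D27aa 2. Positions are not assigned to genes, exons or introns, since no annotation of mm9 was used. Among the numbered chromosomes and X, the share of D27aa peak nucleotides that were D27aa-only ran from 8.881% on chromosome 17 to 25.99% on chromosome 5.

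The 2 D27aa libraries rarely met at the same nucleotide. Both had an event at 523 of the 6043 nucleotides (8.655%), 2811 had events in D27aa 1 alone and 2709 in D27aa 2 alone. The exact binomial 95% interval of the share in both, 7.958 to 9.392, covers counting error only. It takes nucleotides as independent, although 82.82% of them lie in stretches of 2 or more. At the other D27aa peaks the share in both was 24%. A nucleotide with 1 event cannot be seen in both libraries, so the shares were also set side by side at equal height. With 2 events, 20.32% of the D27aa-only nucleotides and 43.34% of the others were seen in both libraries. With 3 events the shares were 54.22% and 72.18%, with 4 events 76.83% and 85.04%, and with 5 or more 87.37% and 97.03%. The D27aa-only share was the lower in each of these classes, and in the last one the heights are not matched, since it includes more of the tallest nucleotides among the others.

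Among whole stretches, events of both libraries were present in 975 of 2777 (35.11%), against 72.32% of the stretches of other D27aa peaks. These shares are not matched for size or number of events. The stretches of other peaks had 4.608 nucleotides each and the D27aa-only ones 2.176, so a higher share can follow from size. Of the D27aa-only stretches, 890 came from D27aa 1 alone and 912 from D27aa 2 alone. Stretches from 1 library were not confined to short ones: of the 860 stretches with 3 or more nucleotides, 473 had events of 1 library, 231 from D27aa 1 and 242 from D27aa 2. In 605 of the 860, each nucleotide had 1 event. An example lay on chromosome 14 (minus strand, 123290340 to 123290350), where 11 nucleotides held 12 events, all 12 in D27aa 1. In that window WT 4 and mutZn 3 had 1 event each and mutZn 4 had 2.

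The tallest nucleotides were mostly seen in both libraries. Of the 26 nucleotides with 10 or more events, 24 (92.31%) were seen in both libraries, against 99.37% of the 1106 other D27aa peaks of that height. Over the 26, D27aa 2 was the higher at 17 and D27aa 1 at 9. For the other D27aa peaks with 10 or more events these numbers were 544 and 475. Over nucleotides with 5 or more events, the Pearson r of log2(events + 1) between the libraries was -0.06897. It was 0.5599 for the others, which include more of the tallest nucleotides.

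**Figure D1:**
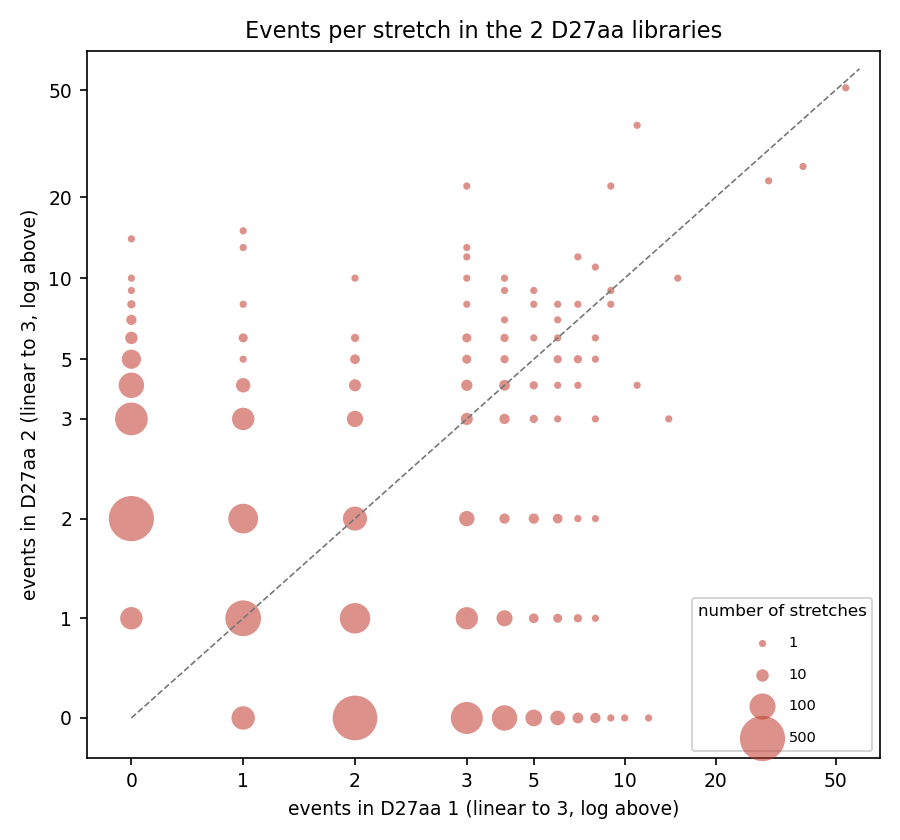
Events in D27aa 1 (horizontal axis) and D27aa 2 (vertical axis) for the 2777 stretches of D27aa-only nucleotides. Point size gives the number of stretches with that pair of values, the axes are linear up to 3 events and logarithmic above, and the dashed line marks equal numbers. The points on the axes are the 890 stretches seen in D27aa 1 alone and the 912 seen in D27aa 2 alone.

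The hottest D27aa-only nucleotide lay on the plus strand of chromosome 2 at 59611717, with 48 events. D27aa 1 had 11 of them and D27aa 2 had 37, with no other D27aa peak nucleotide in the stretch. Of the other 23 libraries, mutZn 4 had 2 events there and mutZn_noUV had 1. The nearest WT peak was 1167 nt away and the nearest mutZn peak 4834 nt. Within 30 nt the level was 29.19 and 95.17 CPM in D27aa 1 and 2, none in the 3 WT libraries, and 0.3107 in mutZn 4.

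A similar pattern of 1 or 2 isolated nucleotides recurred at 4 more of the 10 hottest nucleotides. On the plus strand of chromosome 11 at 60542203 there were 9 events in D27aa 1 and 22 in D27aa 2, with 1 each in WT_noUV and mono_IP 1. On the minus strand of chromosome X at 11421824, D27aa 1 had 2 events, D27aa 2 had 22, WT_noUV 3 and endo_OE 5 had 2. The nucleotide at 103082860 on the plus strand of chromosome 3 had 6 events in D27aa 1, 12 in D27aa 2 and 2 in WT_noUV. D27aa 2 was the higher library at each of these nucleotides.

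On the minus strand of chromosome 9 at 5451204 the libraries were even, with 8 events in D27aa 1 and 9 in D27aa 2. GFP_OE 3 had 1 event at that nucleotide, endo_WT 2 and RRM_OE 4 had 1, while no WT or mutZn library had any within 30 nt. The nearest WT and mutZn peaks were 10436 and 10331 nt from the stretch. A longer stretch that lay far from other peaks was found on chromosome 9 (plus strand, 106999363 to 106999371), with 8 nucleotides, 15 events in D27aa 1 and 10 in D27aa 2. WT 2 had 6 events there and mutZn 4 had 1, and the nearest peaks of WT and mutZn were 217068 and 216962 nt away. In CPM within 30 nt, WT 2 (27.06) lay between D27aa 1 (39.8) and D27aa 2 (25.72), and WT 3 and WT 4 had no event.

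The 3 stretches with the most events were of another kind, long runs inside regions where all anti-GFP proteins had many events. The first, on chromosome 17 (minus strand, 80601527 to 80601544), had 17 nucleotides and 105 events, 54 in D27aa 1 and 51 in D27aa 2. Within 30 nt, D27aa 1 and 2 reached 185.7 and 174.9 CPM, WT 2, 3 and 4 reached 148.8, 114.6 and 86.27, and mutZn 3 and 4 reached 29.96 and 26.57. The D27aa mean was 180.3 ± 7.657 (SD, n = 2), the WT mean 116.6 ± 31.32 (n = 3) and the mutZn mean 28.26 ± 2.4 (n = 2). D27aa_noUV had 85.84 there, from 3 events, and WT_noUV 44.91, from 4. The levels of the groups did not overlap, but the stretch was picked by its D27aa events and the rule used these libraries, so nothing is read from that. WT lay much nearer to D27aa than at the isolated nucleotides.

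The nucleotide of each of these stretches with the most D27aa events is also given as a share of its window, and since it was picked by D27aa, a high D27aa share follows from the choice. In the first stretch, 80601534 took 28.57% of the window's events in D27aa 1 and 23.53% in D27aa 2. It took 21.21% in WT 2, from 7 events, 8.73% in WT 3, 4.399% in WT 4, 4.249% in mutZn 3 and 2.339% in mutZn 4. The other libraries with 8 or more events in the window were at 0% (GFP_OE 3), 3.704% (GFP_OE 4) and 25% (endo_OE 5, 8 events). A second hot nucleotide of the stretch, 80601542, had 11 and 8 events in D27aa 1 and 2.

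The second stretch lay on the plus strand of the mitochondrial genome (1468 to 1496), with 14 nucleotides and 65 events, 39 in D27aa 1 and 26 in D27aa 2. In its window the means were 102.1 ± 17.02 CPM for D27aa (n = 2), 60.52 ± 12.35 for WT (n = 3) and 48.2 ± 0.4926 for mutZn (n = 2), and D27aa_noUV had 85.84 from 3 events. Nucleotide 1483 took 55.81% and 31.43% of the events of D27aa 1 and 2. It took 31.25% in WT 2 (5 events), none in WT 3 and WT 4, and 0.8741% and 0.6494% in mutZn 3 and 4. In GFP_OE 4 it took 15.38% (4 of 26 events), in endo_OE 5 11.11% and in endo_WT 9.091%, and endo_OE 4 had none of its 9 events there. In GFP_OE 3 it held 2 of 4 events.

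The third, on chromosome 19 (minus strand, 5798601 to 5798614), had 11 nucleotides and 53 events, 30 in D27aa 1 and 23 in D27aa 2. In its window mutZn held 72.11 ± 5.086 CPM and WT 38.77 ± 5.025, while D27aa held 103.3 ± 11.51. The last nucleotide in the direction of transcription, 5798601, took 30.95% and 21.62% of the events of D27aa 1 and 2, 4.484% and 6.349% in mutZn 3 and 4, and 12.5%, 0% and 3.546% in WT 2, 3 and 4. It took 25.93% in GFP_OE 4 (27 events in the window), 35.71% in endo_WT (14 events) and 44.44% in endo_OE 5 (9 events), so a high share was not particular to D27aa. The adjacent nucleotide 5798602, also among the 10 hottest, had 9 and 8 events in D27aa 1 and 2, 42 and 10 in mutZn 3 and 4, and 3 and 5 in WT 3 and 4. The nearest mutZn peak lay 32 nt from the stretch, just beyond the limit of the rule.

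**Figure D2:**
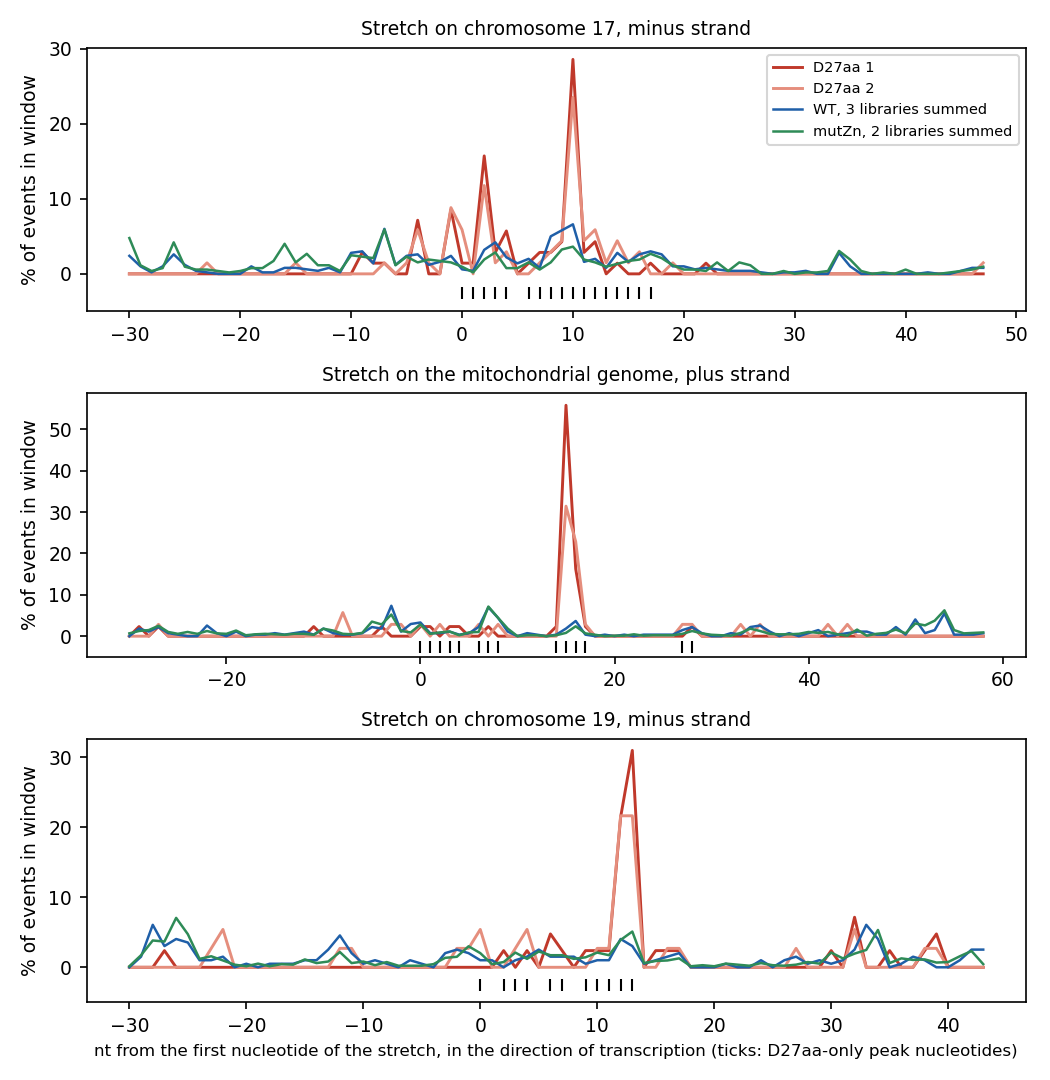
Share of each library's events at every nucleotide of the windows around the 3 D27aa-only stretches with the most events (vertical axis, percent), by nt from the first nucleotide in the direction of transcription (horizontal axis). D27aa libraries are drawn singly and WT and mutZn as sums of 3 and 2 libraries, and ticks under the lines mark the D27aa-only nucleotides. The D27aa 1 line reaches 28.57%, 55.81% and 30.95% at the nucleotide with the most D27aa events, by which the nucleotide was picked.

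The contrast between isolated nucleotides and long runs was then looked at over all stretches with 10 or more events, a division made after these values were seen. There were 46 such stretches, and 42 had events of both libraries. The 20 with 1 or 2 nucleotides held 94 events of D27aa 1 and 235 of D27aa 2, and D27aa 2 was higher in 15 of them and D27aa 1 in 4. The 20 with 5 or more nucleotides held 252 and 207, with D27aa 2 higher in 9 and D27aa 1 in 11. The 6 in between held 42 and 35.

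Other libraries entered these narrow and wide stretches to a different extent. Within 30 nt of the narrow ones, D27aa 1 and 2 had 249.4 and 604.5 CPM, WT 2, 3 and 4 had 36.08, 0 and 0.253, and mutZn 3 and 4 had 0.3395 and 1.398. WT_noUV had 123.5 there, from 11 events in 6 of the 20 stretches, endo_OE 5 had 131.5, also from 11 events, and GFP_OE 3 had 47.3, from 6. D27aa_noUV had no event, which at its depth allows up to 85.84 CPM (3 events), and the 0 of WT 3 allows up to 2.729. Of the 20, 10 had no WT or mutZn event. WT 3, WT 4 and the mutZn libraries are among the libraries behind the lists that the rule set aside, so low values in them follow from the choice.

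Around the wide stretches every library except the monosomal IgG library and the one without antibody had events. D27aa 1 and 2 had 944.6 and 789.7 CPM, WT 2, 3 and 4 had 662.9, 389.3 and 311.2, and mutZn 3 and 4 had 256.1 and 246.6. WT_noUV had 336.8 (30 events) and D27aa_noUV 343.4 (12 events), within the range of the WT libraries. The anti-SRSF7 libraries with UV ran from 220.7 in GFP_OE 3 to 477.4 in endo_OE 4. None of the wide stretches was without WT or mutZn events.

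**Figure D3:**
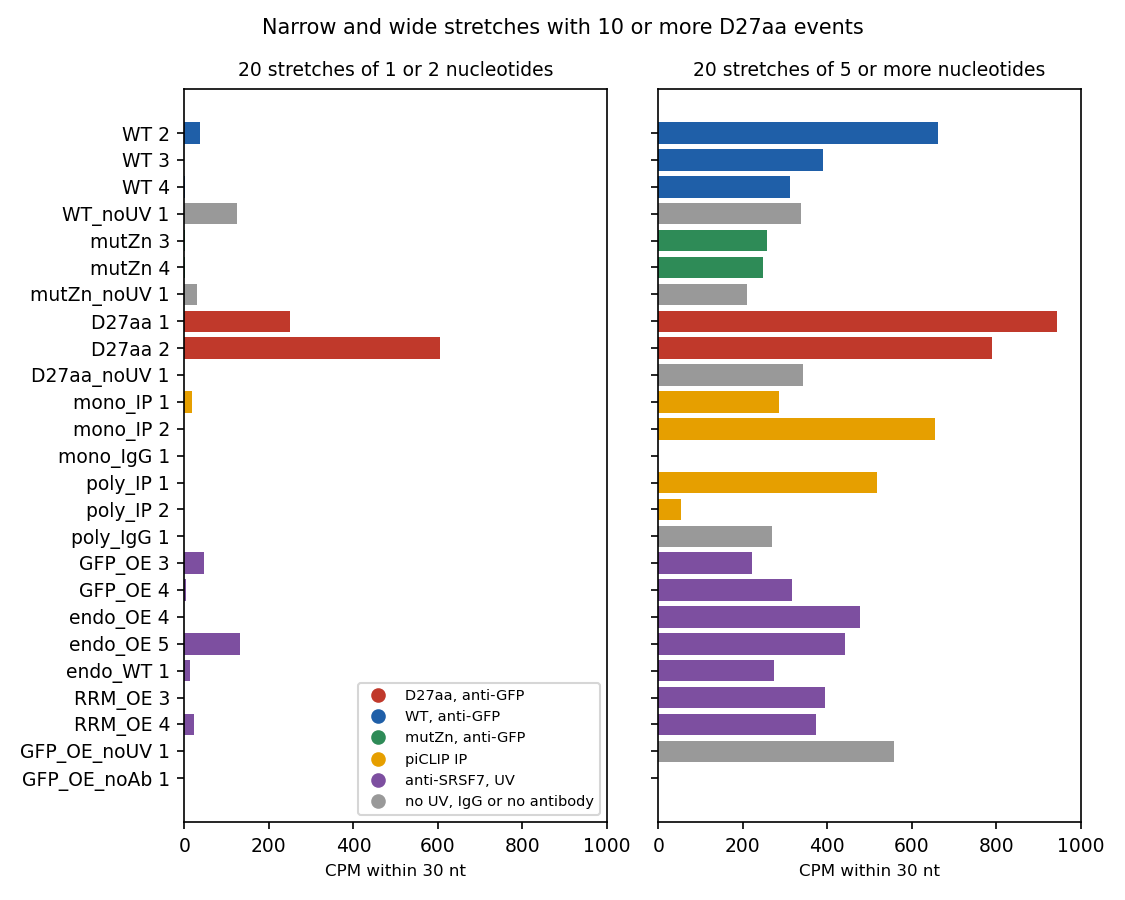
CPM within 30 nt of the 20 narrow (left) and 20 wide (right) D27aa-only stretches with 10 or more events, for each of the 25 libraries (bars, linear axis from 0). In the narrow stretches D27aa 1 and 2 reach 249.4 and 604.5 while WT 3 and mutZn 3 are at 0 and 0.3395, and in the wide stretches WT and mutZn reach 246.6 to 662.9.

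The absence of a WT or mutZn peak did not mean an absence of events. At least 1 WT or mutZn event lay within 30 nt of 4098 D27aa-only nucleotides (67.81%), and 993 (16.43%) had one at the nucleotide itself. Among the other D27aa peaks 72.73% had one at the nucleotide, but 21840 of those lie at a WT or mutZn peak nucleotide. That difference follows from the rule, and nothing is read from it. Of the stretches, 343 had 10 or more such events and 16 had 100 or more. In 12 stretches the WT mean reached the D27aa mean in CPM, and in none did the mutZn mean. Not among these 12, but with 1 WT library above D27aa, was a stretch on chromosome 19 (minus strand, 5801289 to 5801305), where 8 nucleotides held 19 D27aa events. WT 2, 3 and 4 had 252.5, 106.4 and 93.1 CPM in that window, D27aa 1 and 2 had 183.1 and 151.8, and mutZn 3 and 4 had 55 and 54.69. WT 2 was above both D27aa libraries, while the WT mean of 150.7 ± 88.46 was below the D27aa mean of 167.4 ± 22.15.

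The reverse case, no WT or mutZn event within 30 nt, applied to 1137 stretches (40.94%) with 1904 nucleotides and 2910 D27aa events. Of these, 612 had 1 nucleotide and 265 had events of both D27aa libraries. Events of a library outside the WT, mutZn and D27aa groups came within 30 nt of 130 of them. The strongest after those on chromosomes X and 9 lay on chromosome 5 (plus strand, 118840309 to 118840311), with 3 events in D27aa 1 and 13 in D27aa 2 and none in any other library. Next came chromosome 14 (minus strand, 121049723 to 121049724), with 1 and 13, and 2 in WT_noUV, and chromosome 8 (minus strand, 10634419 to 10634420), with 4 and 10 and none elsewhere. D27aa 2 was the higher in all 3.

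Both D27aa libraries lay above all 5 WT and mutZn libraries in CPM within 30 nt in 998 of the 2777 stretches (35.94%). The background is 41.3%, 3698 of the 8946 stretches formed by all D27aa peaks, and since the rule used these libraries nothing is read from either share. The other 1779 stretches include 1644 with events of only 1 D27aa library within 30 nt. Those could not be counted, whatever the WT and mutZn values were.

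Summed over the 6043 nucleotides, D27aa 1 and 2 had 11495 and 11398 CPM (11446 ± 68.69, n = 2). WT 2, 3 and 4 had 897.4, 203.7 and 143.2 (414.8 ± 419.1, n = 3), and mutZn 3 and 4 had 106.6 and 106 (106.3 ± 0.4564, n = 2). WT 2 was the highest of the 3 by a wide margin. At the other D27aa peaks the D27aa mean was 99723 ± 508.9, the WT mean 36024 ± 18480 and the mutZn mean 15885 ± 103.9. The ratio of the D27aa mean to the WT mean was 27.6 at D27aa-only nucleotides, 8.598 over the windows of 30 nt, and 2.768 at the other peaks. Without WT 2 these were 65.99, 12.65 and 3.894. For mutZn these ratios were 107.7, 16.02 and 6.278. The rule barred WT and mutZn peaks near the D27aa-only nucleotides, and the other D27aa peaks all lie near them. The order of the ratios thus follows from the choice and is not a measure of binding.

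**Figure D4:**
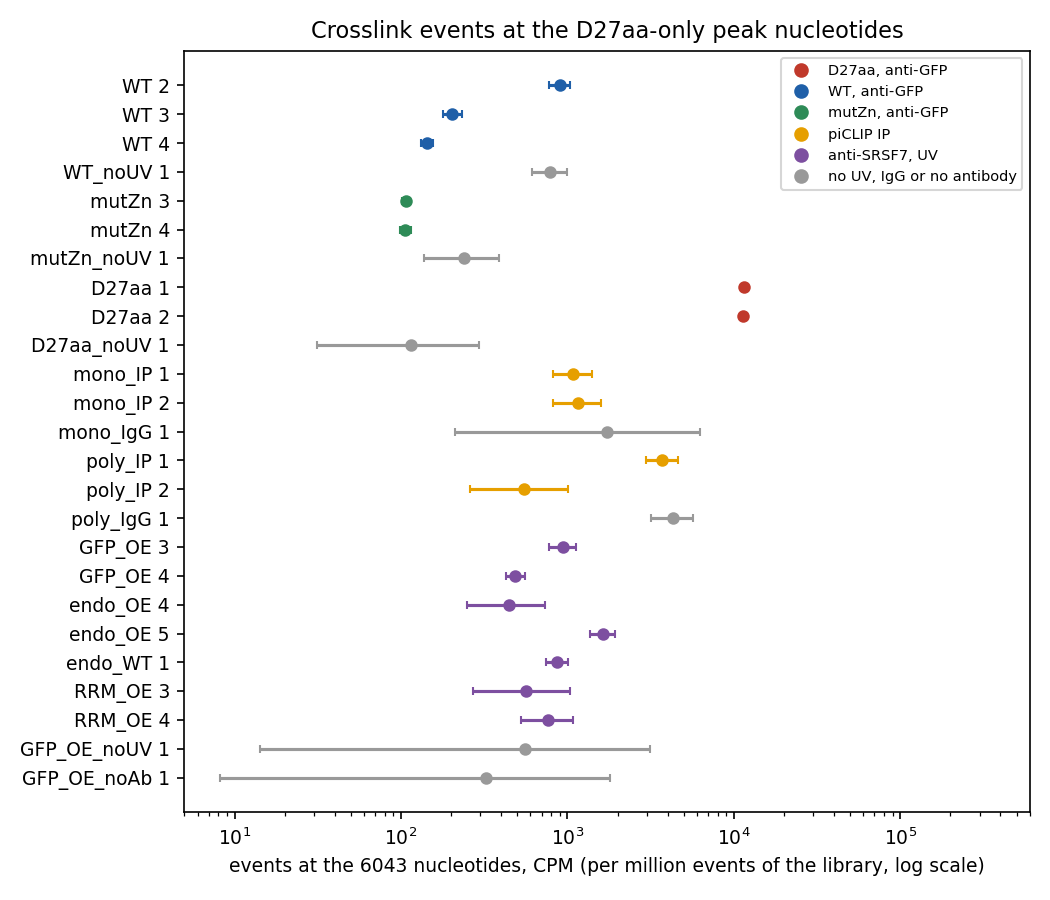
CPM of events at the 6043 D27aa-only nucleotides (horizontal axis, logarithmic), for each of the 25 libraries. Bars are exact Poisson 95% intervals, which cover counting error only, and colours mark the kind of library. D27aa 1 and 2 lie at 11495 and 11398 by the choice of the nucleotides, and the other libraries between 106 and 4295.

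The libraries without UV differed among themselves. D27aa_noUV had 4 events, 114.5 CPM (exact Poisson 95% interval 31.19 to 293.1), and mutZn_noUV had 16, 239.9 CPM. WT_noUV had 70 events, 785.9 CPM (612.6 to 992.9), above WT 3 and WT 4 and near WT 2. The most at 1 nucleotide was 7, on the minus strand of chromosome X at 66244896, where D27aa had 2, and 707.3 CPM remained without it. Peaks called in the libraries without UV came within 30 nt of few D27aa-only nucleotides. These were 23 (0.3806%) for WT_noUV, 3 for mutZn_noUV and 0 for D27aa_noUV, against 18.45%, 13.17% and 8.069% of the other D27aa peaks. The rule had already set aside nucleotides near WT or mutZn peaks, and the others all lie near them. A lower share can thus follow from the choice, and nothing is read from it.

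The anti-SRSF7 and piCLIP libraries were not used by the rule. With anti-SRSF7, GFP_OE 3 and 4 had 938.2 and 487.6 CPM, endo_OE 4 and 5 had 447.5 and 1638, RRM_OE 3 and 4 had 563 and 767.8, and endo_WT had 870. The levels of GFP_OE, endo_OE and RRM_OE overlapped one another, and endo_WT lay inside their range of 447.5 to 1638. At the other D27aa peaks the means of these groups were 71548 ± 5917 for GFP_OE, 99945 ± 1382 for endo_OE and 68539 ± 7043 for RRM_OE (n = 2 each). Those sums run over 28716 nucleotides, not 6043, and are not levels per nucleotide. The other peaks also lie near WT or mutZn peaks by the rule and are taller on average, so nothing is read from the difference. The 2 libraries without UV or antibody had 1 event each.

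A few nucleotides carried many of the anti-SRSF7 events. On the plus strand of chromosome 4 at 90885585, endo_OE 5 had 30 events and endo_WT had 38, while D27aa 1 and 2 had 4 and 5, GFP_OE 4 had 4, WT 2 and WT_noUV had 2 each, and mono_IP 1 had 1. Endo_OE 4, GFP_OE 3, RRM_OE 3 and RRM_OE 4 had no event at that nucleotide. Without that nucleotide, endo_OE 5 had 1279 and endo_WT 690.3 CPM. The stretch at 70778730 to 70778733 on the minus strand of chromosome 10 had 18 events in GFP_OE 3, 14 in GFP_OE 4, 4 and 5 in endo_OE 4 and 5, and 4 in WT 2, against 1 and 2 in D27aa 1 and 2. Both places are among the 5 stretches picked for the most anti-SRSF7 events, so high counts in that group follow from the choice.

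In piCLIP, mono_IP 1 and 2 had 1085 and 1156 CPM, and poly_IP 1 and 2 had 3716 and 544.8. The IgG-titled libraries had 1735 in the monosomal fraction, from 2 events, and 4295 in the polysomal fraction, from 48 events, so the immunoprecipitates were not above them. The value of poly_IP 1 rested on 1 nucleotide, 62054004 on the minus strand of chromosome 11, with 46 of its 86 events, and was 1728 without it. Mono_IP 1 had 6 events there, poly_IgG 7 and D27aa 2 had 2. On chromosome 7 (plus strand, 110274288 to 110274290), poly_IP 1 had 25 events, poly_IgG 12 and mono_IP 1 had 7, against 1 in each D27aa library. A further stretch, on chromosome 4 (minus strand, 124034509 to 124034527), had 1 and 2 events in mono_IP 1 and 2 and 3 in poly_IP 1, none in the IgG libraries, and 4 and 1 in D27aa 1 and 2. The monosomal and polysomal IgG libraries are too shallow for their 0 to inform, since it allows up to 2602 and 268.4 CPM (3 events). Of the D27aa-only nucleotides, 27 (0.4468%) were also peaks of the piCLIP list, against 2432 (8.469%) of the other D27aa peaks. The others lie near WT or mutZn peaks by the rule and are taller on average, so nothing is read from this difference.

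A stretch among the 5 with the most events both in the piCLIP immunoprecipitates and in anti-SRSF7 lay on chromosome 12 (plus strand, 89269991 to 89270005). Its 7 nucleotides held 3 and 6 events in D27aa 1 and 2, 8 and 5 in mono_IP 1 and 2, 1 in each poly_IP library, 7 and 2 in GFP_OE 3 and 4, 1 and 3 in endo_OE 4 and 5, 7 in endo_WT and 1 in RRM_OE 4. The 3 WT libraries had none within 30 nt, mutZn 3 had 2, and neither IgG library nor a library without UV had any. The window reached 247.4 and 249.9 CPM in mono_IP 1 and 2, 86.72 and 6.36 in GFP_OE 3 and 4, and 11.7 ± 5.284 in D27aa. At the depth of the monosomal and polysomal IgG libraries, no event allows up to 2602 and 268.4 CPM (3 events). Both exceed the immunoprecipitate levels. Among the libraries without UV the limit runs from 33.68 in WT_noUV to 1677 in the anti-SRSF7 one.

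Events of other libraries also lay more densely on the D27aa-only nucleotides than beside them. At the nucleotides D27aa 1 and 2 had 397.9 and 376.8 times their own density 16 to 30 nt away, a value that the rule sets. The same ratio was 28.26, 7.715 and 5.806 in WT 2, 3 and 4, 4.763 and 4.76 in mutZn 3 and 4, and 30.14 in WT_noUV. It was 45.54 and 17.32 in GFP_OE 3 and 4, 8.611 and 47.19 in endo_OE 4 and 5, and 23.69 in endo_WT. Among the other controls it was 15.75 in mutZn_noUV, 5.511 in D27aa_noUV (4 events at the nucleotides) and 94.47 in poly_IgG. The highest values elsewhere were 84.63 in poly_IP 1 and 68.88 in RRM_OE 3 (10 events, against 2 at 16 to 30 nt). A single nucleotide held 46 of the 86 poly_IP 1 events and 30 of the 137 endo_OE 5 events, but only 7 of 199 in WT 2. From 31 to 60 nt away the density of D27aa 1 and 2, at 4.291 and 4.221 CPM per 1000 nt, lay just under that of the WT libraries, 4.86 to 5.232.

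**Figure D5:**
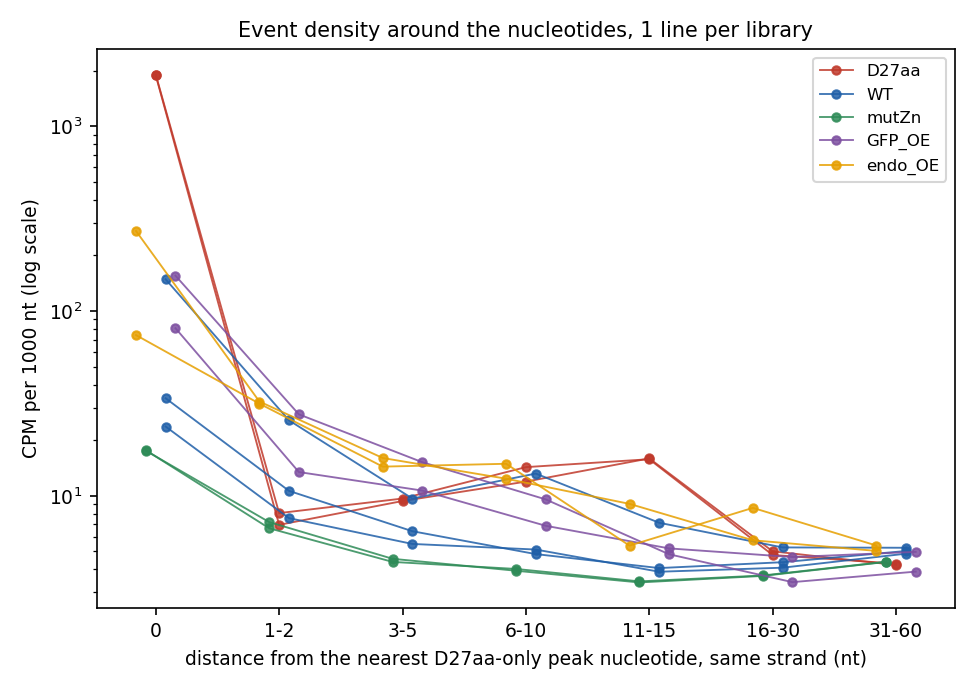
CPM per 1000 nt (vertical axis, logarithmic) by distance from the nearest D27aa-only nucleotide on the same strand (horizontal axis, nt classes), 1 line for each library of the D27aa, WT, mutZn, GFP_OE and endo_OE groups, shifted sideways a little for clarity. All lines are highest at distance 0, at 1902 and 1886 in D27aa, 148.5, 33.72 and 23.7 in WT, and lie between 3.409 and 8.601 at 16 to 30 nt.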

How the data were processed

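The deposited library files list crosslinked nucleotides with a signed score. It counts cDNAs and its sign gives the strand, with build mm9 and annotation Ensembl 59, per the file headers. Per the file headers, the authors kept as peaks positions with a false discovery rate of up to 0.05 after 100 permutations (neighbourhood 15 nt), on summed libraries (4 for WT, of which 3 are analysed here, 2 for mutZn and 2 for D27aa). The piCLIP files carry another result type than the iCLIP files. CASAVA 1.4 was used, per the submitters' processing notes, and for the aligner and duplicate removal the sources used here give nothing.

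Groups and replicate numbers came from the sample titles. Header numbers differ in part, so that WT 3 and WT 4 both carry 3, and whether they are separate cultures is not settled. The submitters' design text speaks of biological replicates. Scores were read as absolute values per strand with Python 3.11.15, pandas 2.3.3, numpy 2.4.6 and scipy 1.17.1. D27aa-only nucleotides within 30 nt of each other were joined to stretches, and windows reach 30 nt beyond a stretch or nucleotide. Levels (CPM) are per 1e+06 events of all positions of a library. No file column was left unmapped (0). Windows rest on few events, and intervals (95%) cover counting error only, since PCR copies may remain. The 6 functions used were checked on simulated positions and returned the known answers.

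No test was made: the rule used the anti-GFP groups, and the other groups have 1 or 2 libraries. The members and lists were chosen with earlier results of these data known. Named were the 10 stretches with the most D27aa events, the 5 with the most nucleotides, the 10 hottest nucleotides, the 5 strongest stretches without WT or mutZn events, the 5 with the most events in the piCLIP immunoprecipitates and the 5 with the most in anti-SRSF7. The loci, the division into narrow and wide stretches and the highest nucleotide of a library were added after values were seen. No sequence or gene name is given, for want of an mm9 reference here. Figures were drawn with matplotlib 3.10.9. Alternatives changed the distance, the strand, the peak score, the lists compared, the joining, the counting and the libraries.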

Additional observations from a re-analysis of the deposited data

How the results depend on the processing

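No paired analysis was possible because no result comes from a test between groups. Of 17 alternatives, the one without the 3 stretches with the most events was chosen after seeing the data. The number of D27aa-only nucleotides (6043) stayed within 1.5 times in 11 of 17 and that of stretches (2777) in 13 of 17.

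With only peaks at the very nucleotide barred (distance 0 nt), there were 12919 nucleotides in 6281 stretches, 9.815% seen in both D27aa libraries, 24642 CPM in D27aa, 1230 in D27aa_noUV, and 84.5% with a WT or mutZn event within 30 nt. At 15 nt the D27aa level was 12814 and the share with such an event 71.01%, and at 100 nt these were 9487 and 62.19%. At 1000 nt there were 3316 nucleotides in 1694 stretches, with 6473 in D27aa, 0 in D27aa_noUV and 48.52% with such an event. With a peak score of at least 5, 95 nucleotides in 87 stretches were left, 87.37% in both libraries, with 1146 in D27aa, 28.61 in D27aa_noUV and 65.26%. With at least 10, there were 26 nucleotides in 23 stretches, 92.31% in both libraries, with 602.7, 28.61 and 69.23%.

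Against the WT list alone 9.549% were in both libraries, with 15636 in D27aa, 715.4 in D27aa_noUV and 75.88% with a WT or mutZn event. Against the mutZn list alone these were 12.66%, 18465, 715.4 and 75.98%. With the peaks of the libraries without UV barred too, the D27aa level was 11310. With each position counted once it was 9348, and without the 3 stretches 11154. Without D27aa replicate 1 or 2, the nucleotides left numbered 3232 to 3334, in 1865 to 1887 stretches, at 11398 to 11495 CPM in D27aa, 57.23 to 114.5 in D27aa_noUV and 67.11% to 68.81% with a WT or mutZn event. The share in both libraries has no value there. The cause of these moves was not tested beyond the number of nucleotides each setting leaves. Depth limits the D27aa_noUV value, which rests on 4 events.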

Other observations

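Outside the 3 stretches with the most events, the D27aa-only nucleotides held 11168 and 11140 CPM in D27aa 1 and 2, and 748.6, 117.3 and 89.81 in WT 2, 3 and 4. They held 68.24 and 70.07 in mutZn 3 and 4, 696.1 in WT_noUV and 57.23 in D27aa_noUV. More than 1000 nt from any WT or mutZn peak, the levels were 396.9, 22.74 and 9.361 in WT 2, 3 and 4 and 516.4 in WT_noUV, and D27aa_noUV had no event. Near those peaks, at 31 to 100 nt, they were 243.5, 94.6 and 70.58 in WT 2, 3 and 4, 123.5 in WT_noUV and 57.23 in D27aa_noUV. The distant class holds 3316 nucleotides and the near one 1023, so these sums are not levels per nucleotide. The part of the shared barcode (WT_noUV) or the shared run (WT 2) in these values was not tested.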
